A study of Rattus norvegicus with 6 samples.

Results

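Interferon-stimulated genes were followed in cells grown from the brainstem of 2 rat strains, SHR (spontaneously hypertensive) and WKY (Wistar Kyoto, the normotensive control). Each strain had 3 single-colour CodeLink arrays, and each array held total RNA from cells of 3 pooled dishes, called a pool here. No treatment, infection, transgene or age is named in the labels. The design text calls the pools of a strain independent biological replicates without saying what separated them (animals, litters or days). The genes were a list of 34 that interferon is known to induce, matched by symbol. The list was drawn up with earlier results of these data known, so the shares of members set beside those of all probes are descriptions. Of these, 28 were measured, at 38 probes, among 12198 genes that had a probe with a single symbol in the platform annotation. Ddx58, which the annotation names Rig1, was found through its synonym in the gene table, and the other 27 by their own symbol. Ifih1, Parp9, Trim25, Xaf1 and Sp100 had no probe annotated to that symbol alone, and the 1 probe of Oas1a is shared with Oas1k, so these 6 were not analysed here. All 28 measured genes passed the filter on valid values. Where a gene had several probes, its brightest one stands for it.

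Interferons are secreted when cells sense foreign nucleic acid or bacterial products. Type I interferons signal through JAK kinases to a complex with STAT2 and IRF9 that binds the interferon-stimulated response element (ISRE), while interferon gamma acts mainly at the gamma-activated site (GAS). The induced genes code for sensors of viral RNA and DNA, for transcription factors that extend the response, for proteins that block viral replication and for chemokines that attract lymphocytes. In brain cultures, microglia and astrocytes are both known to respond to interferon.

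The ISRE and GAS letters in the promoters of the members are shown first, because interferon signalling acts at these elements. Promoter windows of 250 bases before the RefSeq start (build GRCr8) were found for 21 of the 28 members. The ISRE letters searched for, GAAA, any 2 bases and GAAA again, on either strand, were present in 13 of these 21 windows (61.9%), against 3.61% of 27457 genes with such a window. The GAS letters TTCNNNGAA, which read alike on both strands, were present in 6 of the 21 (28.6%), against 8.19% of all genes. Bst2 held 2 ISRE matches that overlap each other, and its GAS match overlaps 1 of them. The 5 windows below are those of the 4 members with the widest range over the arrays that held an ISRE match, and of Irf1, the member with the narrowest range, which held a GAS match and no ISRE match. Capitals mark the matches, and each sequence runs 5′ to 3′ towards the start of its gene.
Ifit3 (chr1:241527076-241527325, plus strand): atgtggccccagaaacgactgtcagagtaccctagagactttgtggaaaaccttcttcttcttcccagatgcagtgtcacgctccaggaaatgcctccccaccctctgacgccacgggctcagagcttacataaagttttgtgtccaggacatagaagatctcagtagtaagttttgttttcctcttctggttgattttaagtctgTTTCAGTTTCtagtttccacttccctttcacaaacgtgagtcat
Irf7 (chr1:205800024-205800273, minus strand): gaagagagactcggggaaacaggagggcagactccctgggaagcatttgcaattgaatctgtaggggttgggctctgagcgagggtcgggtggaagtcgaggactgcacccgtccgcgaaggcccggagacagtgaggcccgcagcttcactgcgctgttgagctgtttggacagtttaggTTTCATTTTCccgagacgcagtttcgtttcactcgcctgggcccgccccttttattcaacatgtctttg
Rsad2 (chr6:48788121-48788370, minus strand): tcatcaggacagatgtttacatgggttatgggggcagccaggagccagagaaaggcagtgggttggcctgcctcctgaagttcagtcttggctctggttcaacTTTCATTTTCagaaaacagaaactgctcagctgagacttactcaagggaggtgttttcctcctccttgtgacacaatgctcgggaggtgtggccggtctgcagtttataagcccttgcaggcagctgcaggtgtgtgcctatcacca
Bst2 (chr16:18254968-18255217, minus strand): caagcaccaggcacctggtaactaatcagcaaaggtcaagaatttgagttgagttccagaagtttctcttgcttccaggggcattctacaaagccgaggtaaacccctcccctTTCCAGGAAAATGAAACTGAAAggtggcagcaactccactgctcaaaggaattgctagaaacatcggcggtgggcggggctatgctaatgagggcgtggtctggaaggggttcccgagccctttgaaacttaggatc
Irf1 (chr10:38417685-38417934, plus strand): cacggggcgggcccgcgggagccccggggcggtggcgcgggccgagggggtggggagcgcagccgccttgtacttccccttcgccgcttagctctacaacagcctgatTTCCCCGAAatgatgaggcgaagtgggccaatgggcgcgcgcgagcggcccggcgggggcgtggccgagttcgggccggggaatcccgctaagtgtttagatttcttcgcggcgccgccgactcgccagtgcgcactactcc
The ISRE match ends 34 bases before the start in Ifit3, 59 before it in Irf7 and 137 before it in Rsad2. A match is a description of letters, and its absence from the windows of Mx1, Oasl, Stat2, Cmpk2 and Cxcl9, which held neither motif, says nothing about the factors.

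No strain difference in these genes passed the test, while the pools within a strain, WKY above all, lay far apart. In the comparison of SHR with WKY none of the 28 members passed an adjusted p of 0.05 in limma, and 0.0% of all 33249 probes tested did. The smallest adjusted p of a member was 0.743, at Ifitm3. At an unadjusted p under 0.05 there were 0 members higher and 0 lower in SHR, against 3.65% and 4.01% of all probes (7.65% in either direction). For no member did the 3 SHR arrays lie wholly above or below the 3 WKY arrays, where 6.35% of all probes had all SHR arrays above and 7.48% all below, 13.8% together. The median difference, SHR minus WKY, was -0.28 (log2 intensity) over the members and -0.0099 over all probes, with 21 members below 0 (75%, against 51.6% of all probes) and 7 above. The direction of the median turned when WKY 3 was left out (0.06). It stayed below 0 without any other single array, from -0.64 without WKY 1 to -0.04 without WKY 2.

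The members varied together from pool to pool. In RNA of a mixed culture, more cells of a type and more RNA per cell cannot be told apart. WKY 1 held the lowest of the 6 values for 26 of the 28 members (92.9%), where it held the lowest for 14.5% of the 31327 probes valid on all arrays. The exceptions were Irf1, lowest on SHR 2 (12.9% of all probes), and Stat2, lowest on SHR 3 (20.1%). For 26 members every SHR array was above WKY 1, against 22.8% of all probes. Within WKY alone, WKY 1 was the lowest array for all 28 members, against 34.8% of all probes. WKY 3 held the highest value for 22 members (78.6%, against 19.2% of all probes) and WKY 2 for 3 more (10.7%, against 18.7%). The SHR arrays lay between in many members but not in all. For 16 members (57.1%, against 2.57% of all probes) every SHR array was above WKY 1 and below both WKY 2 and WKY 3. Among the SHR arrays SHR 2 was highest for 22 members (78.6%, against 35.9% of all probes) and SHR 3 lowest for 20 (71.4%, against 33.8%). Both conditions, SHR 2 highest in its strain and WKY 1 lowest of all arrays, held for 21 members (75%, against 6.05%). These rules on the order of the arrays were chosen after the values were seen and carry no test.

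**Figure D1:**
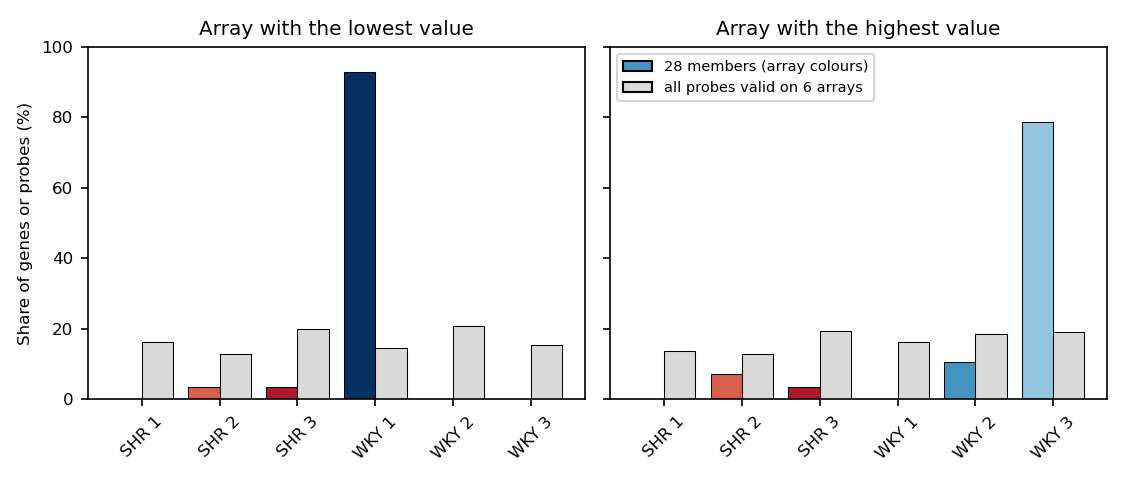
Share of the 28 members (coloured bars) and of all 31327 probes valid on the 6 arrays (grey bars), in percent, that had their lowest value (left) or highest value (right) on each array. WKY 1 was lowest for 92.9% of members and WKY 3 highest for 78.6%, while no array held more than 20.7% of the lowest or 19.3% of the highest values among all probes.

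Averaged over the 28 members, after centring each gene on its mean over the 6 arrays, the log2 level was -0.17, 0.28 and -0.42 in SHR 1, SHR 2 and SHR 3. It was -1.0, 0.52 and 0.80 in WKY 1, WKY 2 and WKY 3. The WKY pools thus enclosed the SHR pools on both sides. The median rise from WKY 1 to WKY 2 was 1.10 and that from WKY 1 to WKY 3 was 1.63 (log2). A rise of at least 2-fold from WKY 1 to WKY 3 was measured at 19 members (67.9%, against 3.56% of all probes), and from WKY 1 to WKY 2 at 14 (50%, against 4.25%). The range within WKY exceeded that within SHR for 27 of 28 members (96.4%, against 53.1% of all probes), with Irf1 as the exception. The range over all 6 arrays was at least 2-fold for 21 members (75%, against 29.4% of all probes) and at least 4-fold for 11 members (39.3%, against 4.26% of all probes). Dim probes vary more, and of the 26 members with a mean log2 intensity of at least 10, 10 had a range of 4-fold or more (38.5%) and 20 of 2-fold or more (76.9%), against 1.72% and 11.5% of the 12553 probes that bright.

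**Figure D2:**
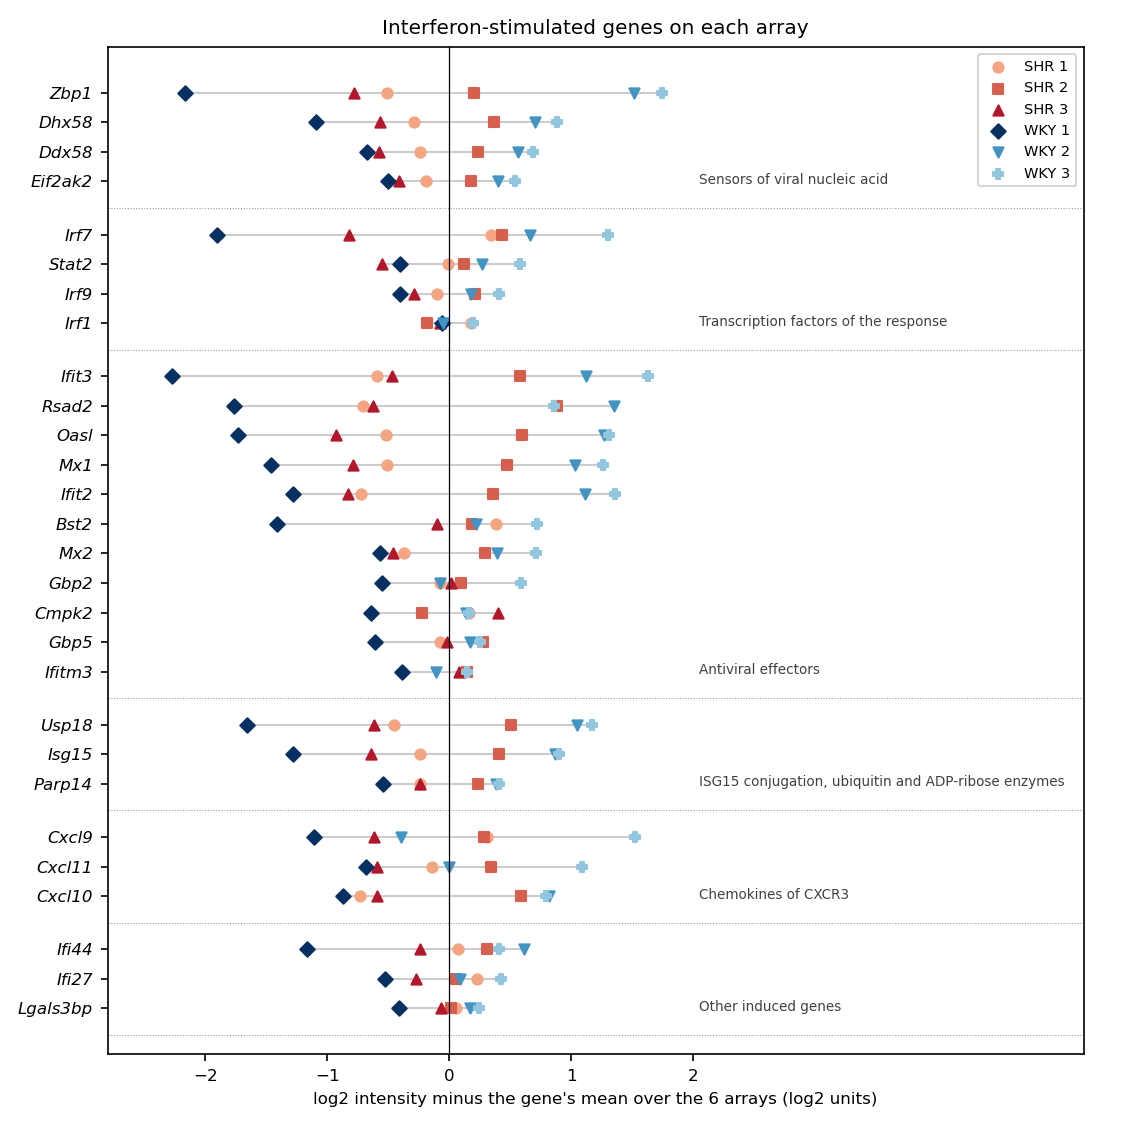
Log2 intensity of each measured member on each of the 6 arrays, centred on the gene's mean over the arrays, with genes grouped by role and ordered by range within a role. The dark blue diamonds of WKY 1 lie at the left end for 26 of 28 genes, and the other WKY arrays mostly lie at the right. For 16 genes all red SHR symbols lie between them.

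Among the sensors of viral nucleic acid, all 4 measured members were lowest on WKY 1 and highest on WKY 3 at their brightest probe. Zbp1, which senses Z-form nucleic acid and can start necroptosis, had a log2 intensity of 8.84, 9.55 and 8.57 in the SHR arrays and of 7.18, 10.86 and 11.09 in WKY 1, WKY 2 and WKY 3. The WKY 3 value was 15-fold that of WKY 1, the widest range of any member together with Ifit3. Zbp1 was dimmer than most members and is not among the 26 with a mean log2 intensity of at least 10. The mean of SHR was 8.99 ± 0.51 (SD, n = 3), that of WKY was 9.71 ± 2.19, and they differed by -0.72 ± 1.03 (SE, limma adjusted p = 0.868), so the spread between the WKY pools exceeded the strain difference. Dhx58, which codes for the RIG-I-like helicase LGP2, read 12, 12.66 and 11.72 across the SHR pools and 11.20, 12.99 and 13.17 across the WKY pools. Ddx58, the RIG-I helicase that detects viral RNA ends, read 11.54, 12.02 and 11.21 across the SHR pools and 11.11, 12.35 and 12.47 across the WKY pools. Its WKY 1 value lay just below the lowest SHR array and its other WKY values above the highest. A second, dim probe of Ddx58 went another way, highest on WKY 1 (7.68) and lowest on WKY 2 (6.84). Eif2ak2, the kinase PKR that stops translation when it binds double-stranded RNA, read 13.61, 13.98 and 13.39 across the SHR pools and 13.30, 14.20 and 14.34 across the WKY pools. Its second probe gave the same order within WKY, at 11.18, 11.98 and 12.03. The differences between the strains were -0.33 ± 0.55 for Dhx58, -0.39 ± 0.41 for Ddx58 and -0.29 ± 0.31 for Eif2ak2, none past the threshold.

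The transcription factors of the response split by how far they moved. Irf7, which drives the transcription of interferon alpha genes and is itself strongly induced, read 13.40, 13.49 and 12.24 across the SHR pools and 11.16, 13.72 and 14.36 across the WKY pools. The range was 9.17-fold, and the strain difference was -0.03 ± 0.84. Stat2 and Irf9, partners in the complex that binds the ISRE, had ranges of 1.14 and 0.81 (log2). Stat2 read 13.11, 13.24 and 12.57 across the SHR pools and 12.72, 13.39 and 13.70 across the WKY pools, and was lowest on SHR 3. Irf1, a factor that interferon gamma induces through its GAS element, had the narrowest range of all members, 0.37 at its brightest probe and 0.47 at its other, which was lowest on WKY 1. Its values, 11.97, 11.61 and 11.72 across the SHR pools and 11.73, 11.74 and 11.99 across the WKY pools, did not follow the order of the other members.

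The antiviral effectors, with 11 of 12 measured, were all lowest on WKY 1, and 7 of them highest on WKY 3. Ifit3, a tetratricopeptide protein that binds the RNA-binding member of its family, read 11.64, 12.81 and 11.76 across the SHR pools and 9.96, 13.35 and 13.86 across the WKY pools, a 15-fold range. Its neighbour Ifit2, which inhibits translation, read 11.29, 12.37 and 11.18 across the SHR pools and 10.73, 13.12 and 13.37 across the WKY pools. In both, SHR 2 was the highest SHR array and still below WKY 2 and WKY 3. Rsad2, the viperin gene whose product makes a chain-terminating nucleotide, read 12.08, 13.67 and 12.16 across the SHR pools and 11.02, 14.13 and 13.64 across the WKY pools. Oasl, related to the oligoadenylate synthetases, read 11.97, 13.09 and 11.56 across the SHR pools and 10.76, 13.76 and 13.80 across the WKY pools. Mx1, a dynamin-like GTPase that blocks viral ribonucleoproteins, read 13.24, 14.22 and 12.96 across the SHR pools and 12.29, 14.78 and 15.01 across the WKY pools. These 5 genes had ranges between 6.22-fold and 15-fold. Strain differences were -0.32 ± 1.02 for Ifit3, -0.79 ± 0.74 for Ifit2, -0.29 ± 0.87 for Rsad2, -0.56 ± 0.88 for Oasl and -0.55 ± 0.76 for Mx1.

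Other effectors moved less or in another order. Mx2, a paralog of Mx1 whose sequence a probe could share, read 11.52, 12.18 and 11.43 across the SHR pools and 11.32, 12.28 and 12.60 across the WKY pools, and its second probe had a wider range, 2.11 against 1.29, with SHR 3 (10.26) just below WKY 1 (10.30). A second probe of Mx1 was dim, at 6.61 and below with 1 value missing, and did not show the order. Bst2, tetherin, which holds budding virions at the cell surface, read 12.41, 12.22 and 11.93 in SHR, close to each other, and 10.62, 12.25 and 12.75 in WKY. Only WKY 1 stood away from the rest, at 4.38-fold below WKY 3, and the strain difference was 0.31 ± 0.53. Ifitm3, a membrane protein that blocks the fusion of viruses, had the smallest unadjusted p of all members, 0.204 (limma adjusted p = 0.743), at 14.84, 14.86 and 14.80 across the SHR pools and 14.33, 14.61 and 14.86 across the WKY pools. Its SHR values lay within 0.06 of each other, not far below the highest array intensity of 15.34. The GTPase genes Gbp2 and Gbp5 had ranges of 1.13 and 0.88, and Cmpk2, a mitochondrial nucleotide kinase gene next to Rsad2 on the chromosome, one of 1.04 against the 3.11 of Rsad2. Cmpk2 was highest on SHR 3, the array that was lowest within SHR for 20 members.

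Isg15, the ubiquitin-like protein that is attached to other proteins during the response, read 13.87, 14.52 and 13.47 across the SHR pools and 12.83, 14.98 and 15.01 across the WKY pools. Usp18, the enzyme that removes ISG15 and dampens the type I receptor, read 12.52, 13.48 and 12.36 across the SHR pools and 11.32, 14.02 and 14.14 across the WKY pools. Both genes had the same order of arrays, and the other probe of Usp18 ranged over 2.70 against 2.82. The strain differences were -0.32 ± 0.63 and -0.38 ± 0.79. Parp14, an ADP-ribosyltransferase, moved less, with a range of 0.95 at its brightest probe and of 1.06 at each of 2 others. Array intensities reached 15.34 at most (0.405% of probes were above 15). Isg15 and Mx1 in WKY 3 and Ifi27, at 15.14, thus lay near the top of the scale, where differences can be compressed. Ifitm3, at 14.86 or less, and Lgals3bp, at 14.82 or less at its brightest probe, lay little below them. Whether differences were compressed was not tested.

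The 3 chemokines that bind the receptor CXCR3 on lymphocytes were lowest on WKY 1 but differed in the other WKY pools. Cxcl9, which interferon gamma mainly induces, read 11.91, 11.88 and 10.98 across the SHR pools and 10.49, 11.20 and 13.12 across the WKY pools. WKY 3 thus stood 3.77-fold above WKY 2, and WKY 2 lay among the SHR arrays. Cxcl11 also stood highest on WKY 3 at both of its probes, with 10.59, 11.27 and 12.36 in WKY at the brightest, where WKY 3 was 2.12-fold above WKY 2. Its other probe read 10.22 on SHR 3, below the 10.42 of WKY 1. These were the 2 members of 28 (7.14%) in which WKY 3 exceeded WKY 2 at least 2-fold, against 2.60% of all probes, and the median of that step over the members was 0.23 (log2). Cxcl10, which lies between the other chemokine genes on the chromosome and which type I interferon also induces, read 11.27, 12.59 and 11.41 across the SHR pools and 11.13, 12.82 and 12.80 across the WKY pools, with WKY 2 and WKY 3 level. Of the remaining genes, Ifi44 ranged over 1.79, Ifi27 over 0.95 and Lgals3bp, a galectin-binding glycoprotein, over 0.65, all with the lowest value on WKY 1. The second probe of Lgals3bp, much dimmer, ranged over 0.23.

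The comparison of the strains depended on WKY 1 in size, though no call depended on it. As WKY 1 was the lowest WKY array for all 28 members, leaving it out had to lower every difference. The shares set beside those of all probes are therefore descriptions with no test. Without that array, 27 of 28 members were below 0 (51.4% of all probes) and 11 had an unadjusted p under 0.05, all lower in SHR (39.3%, against 5.38% of all probes in that fit, with 5.41% of probes and 0 members higher). They were Zbp1 (-1.99 ± 0.32), Ifit2 (-1.63 ± 0.39), Oasl (-1.57 ± 0.46), Ifit3 (-1.54 ± 0.40), Mx1 (-1.42 ± 0.39), Usp18 (-1.30 ± 0.36), Isg15 (-1.04 ± 0.32), Dhx58 (-0.95 ± 0.30), Ddx58 (-0.82 ± 0.26), Mx2 (-0.73 ± 0.28) and Eif2ak2 (-0.61 ± 0.21). None passed over all probes, with a smallest member adjusted p of 0.316 in limma, at Zbp1. In 17 members (60.7%, against 16.5% of all probes) every SHR array then lay below WKY 2 and WKY 3. Ifitm3, at 0.10 ± 0.15, was the member that stayed above 0. Leaving out any other array gave 0 members with an unadjusted p under 0.05. The shares of all probes lower and higher in SHR at that p were 3.32% and 3.0% without SHR 1, 5.31% and 5.39% without SHR 2 and 2.99% and 2.47% without SHR 3. They were 3.55% and 3.37% without WKY 2 and 2.83% and 2.79% without WKY 3.

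**Figure D3:**
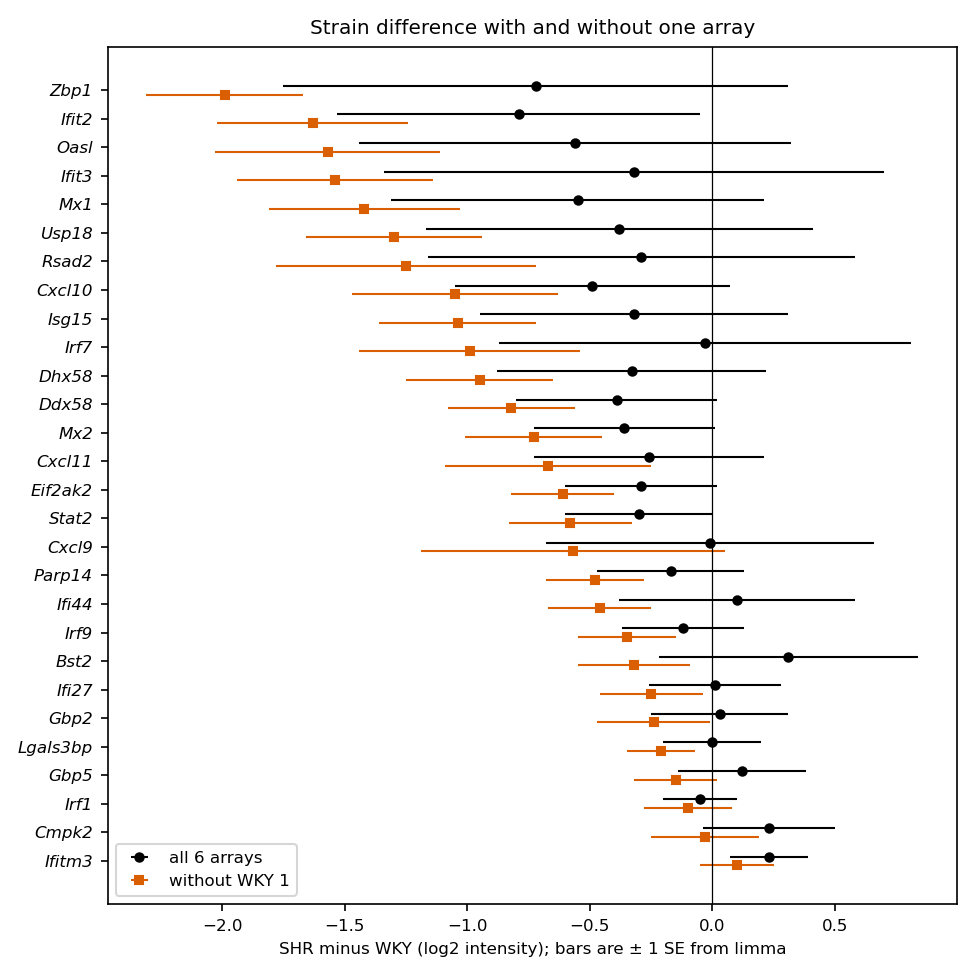
SHR minus WKY difference in log2 intensity for each member, with bars of 1 SE from limma, over all 6 arrays (black circles) and without WKY 1 (orange squares). Without WKY 1 the values shifted to the left for every member, which was fixed in advance because WKY 1 was each member's lowest WKY array. The shift was largest for Zbp1, from -0.72 to -1.99, and smallest for Irf1, from -0.05 to -0.10.

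Other genes of the pathway, from lists of ligands, signalling proteins and further induced genes, showed where the pattern was and was not seen. Of 67 further interferon-induced genes, 44 were measured. Of these, 30 were lowest on WKY 1 (14.5% of all probes) and 27 highest on WKY 3 (19.2% of all probes). Their array means were -0.07, 0.15 and -0.19 over the SHR pools and -0.56, 0.23 and 0.43 over the WKY pools, the same order as in the members. Ifit1, named after its values were seen, had the widest range, with 11.09, 12.45 and 11.57 across the SHR pools and 5.98, 12.21 and 11.67 across the WKY pools, and its second probe read 7.96 in WKY 1 and 10.61 or more on every other array. The 5.98 was a dim value, and the range was 6.47 at that probe against 3.97 at the second. Oas1i (range 2.88), Herc6 (2.72) and Rtp4 (2.34), chosen in the same way, were also lowest on WKY 1 and highest on WKY 3. At an unadjusted p under 0.05 there was 1 gene of the 44 lower and 1 higher in SHR, against 4.01% and 3.65% of all probes. Tap1, a peptide transporter subunit of antigen presentation, was lower (-0.71 ± 0.19, -0.30 at its other probe, limma adjusted p = 0.530). Tap2, the other subunit, was higher (0.42 ± 0.16, limma adjusted p = 0.632), and neither passed over all probes.

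Outside the members, which hold Stat2, Irf1, Irf7 and Irf9, the lists of signalling genes had narrower ranges, and the pattern was weak or not seen in them. Of 16 listed receptors, kinases and factors 12 were measured, 0 of them lowest on WKY 1 (14.5% of all probes). Their median range was 0.40 against 1.73 for the members. The gamma receptor subunit Ifngr1 read 13.22, 13.17 and 13.38 across the SHR pools and 13.43, 13.44 and 13.30 across the WKY pools, and Irf3, the factor that first switches on interferon beta, read 12.58, 12.27 and 12.53 against 12.35, 12.32 and 12.44. Irf8, a myeloid factor, read 9.07 to 9.37. Array means of this list were between -0.12 and 0.12. Adaptors and kinases upstream of interferon (12 of 16 measured, 2 lowest on WKY 1) and inhibitors of signalling (10 measured, 1 lowest on WKY 1) had array means between -0.14 and 0.16 and between -0.08 and 0.09. Over WKY 1, WKY 2 and WKY 3 the adaptor means were -0.09, 0.06 and 0.16, the order of the members, but SHR 3 was lowest at -0.14. Of the adaptors, Sting1, which relays the sensing of DNA in the cytosol and was named after its values were seen, read 11.98, 12.61 and 12.99 in WKY 1, WKY 2 and WKY 3. Traf6 was the 1 gene of 12 with an unadjusted p under 0.05 (-0.39 ± 0.12, limma adjusted p = 0.569), where 4.01% of all probes were lower in SHR at that p. Of 10 interferon ligands 2 had a probe, both of low intensity. Ifnb1, the interferon beta gene, read 8.28, 8.05 and 7.91 across the SHR pools and 7.52, 8.05 and 8.03 across the WKY pools, and Ifnk read 5.55 to 6.34. Both were lowest on WKY 1, within 0.79 of the highest array. Ifnar1, Ifnar2 and Ifng had no probe with that single symbol.

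**Figure D4:**
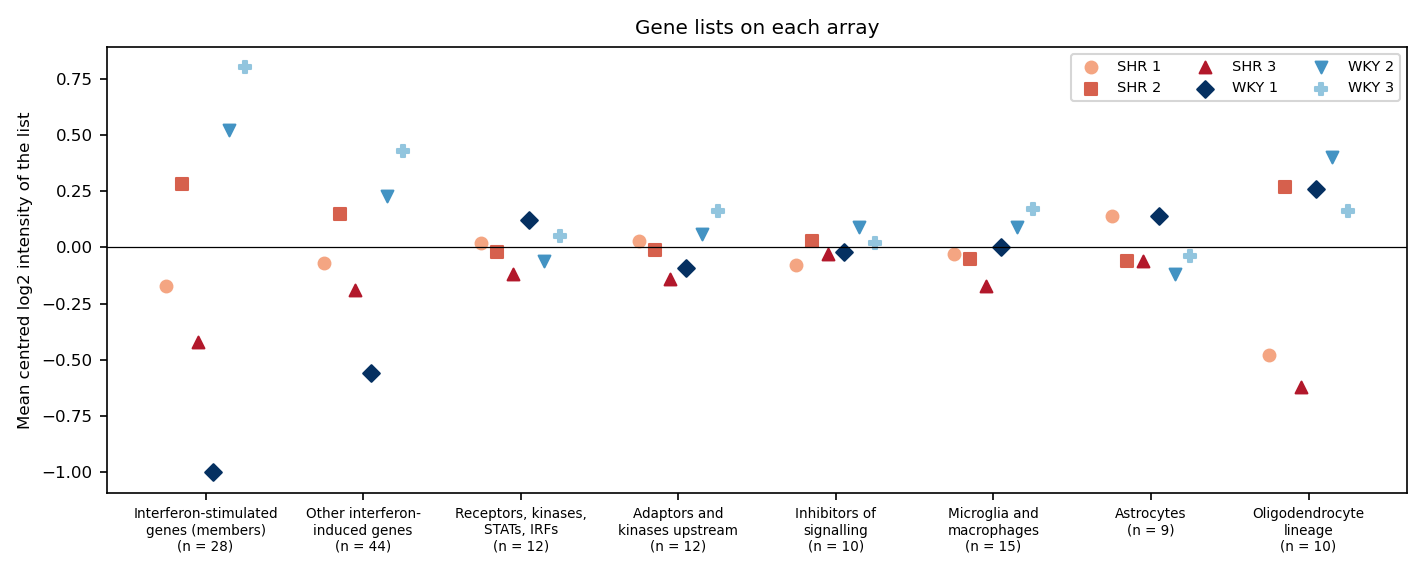
Mean centred log2 intensity of each gene list on each array, with the number of genes measured under its name. The members and the other interferon-induced genes spread from WKY 1 at the bottom (-1.0 and -0.56) to WKY 3 at the top (0.80 and 0.43), whereas the signalling, microglia and astrocyte lists stay within 0.17 of 0.

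Markers of the cells that the cultures could hold were set beside the members. Of the 15 measured microglia and macrophage markers, 0 were lowest on WKY 1 (14.5% of all probes). Their array means were -0.03, -0.05 and -0.17 over the SHR pools and 0.00, 0.09 and 0.17 over the WKY pools. Aif1, Csf1r, Tyrobp and C1qa, defining genes of microglia, read between 15.01 and 15.30 on all arrays, close to the top of the scale. WKY 3 was the highest array for 6 of the 15 (19.2% of all probes). The following markers were chosen after their values were seen. Itgam read 11.44, 11.74 and 12.57 in WKY and Cd14 read 13.66, 13.66 and 14.67, both highest on WKY 3, the array on which Cxcl9 and Cxcl11 stood apart. Lyz2, a lysozyme gene of myeloid cells, was also highest there (12.31) and was the 1 marker of the list with an unadjusted p under 0.05 (-1.08 ± 0.41, limma adjusted p = 0.628). Others went the opposite way from WKY 1 to WKY 3, with Laptm5 at 12.90 and 12.51, Cx3cr1 at 10.39 and 10.04 and P2ry12 at 11.00 and 10.71. Astrocyte markers had array means between -0.12 and 0.14, with 1 of 9 lowest on WKY 1, and 0 of 10 oligodendrocyte lineage markers were lowest there. The oligodendrocyte list had means of -0.48, 0.27 and -0.62 over the SHR pools and 0.26, 0.40 and 0.16 over the WKY pools, so that within SHR its order was that of the members, with SHR 2 highest and SHR 3 lowest. The neuron list, with 1 of 6 genes lowest on WKY 1, was also highest within SHR on SHR 2, at -0.27, 0.29 and -0.27, and read -0.11, 0.34 and 0.01 over the WKY pools. The 8 measured lymphocyte and dendritic cell markers had array means between -0.12 and 0.18, and 0 of the 7 valid on all arrays were lowest on WKY 1. Among those chosen after their values were seen, Cd3e, a T cell gene, read 9.20 to 9.47 and Prf1 read 5.66 to 6.56. Cd8a, also chosen after its values were seen, read 6.39, 6.08 and 6.82 across the SHR pools and 7.33, 8.13 and 8.46 across the WKY pools (-1.54 ± 0.33, limma adjusted p = 0.443). Its order within WKY was that of most members, but every SHR array lay below WKY 1. Fibroblast markers (2 of 9 lowest on WKY 1) had means of -0.06, 0.41 and 0.57 over the SHR pools and -0.19, -0.24 and -0.49 over the WKY pools. Endothelial markers (1 of 7) stayed between -0.09 and 0.11. Ependymal and choroid plexus markers, with 2 of the 5 valid on all arrays lowest on WKY 1, had means of 0.48, 0.34 and 0.50 over the SHR pools and -0.67, -0.73 and -0.04 over the WKY pools. At an unadjusted p under 0.05, 4 of 9 fibroblast and 2 of 6 ependymal and choroid plexus markers were higher in SHR (3.65% of all probes). Lower were 2 of 10 oligodendrocyte, 1 of 9 astrocyte, 1 of 8 lymphocyte and dendritic cell and 1 of 15 microglia and macrophage markers (4.01% of all probes). Aldh1a2, a fibroblast marker, had the smallest adjusted p of these (1.49 ± 0.14, limma adjusted p = 0.0853). The part of these cell types in the pattern of the members was not tested.

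Among the 21 members with a promoter window, the median range was 1.13 over the 13 with an ISRE match and 1.45 over the 8 without. The 7 members without a window are not in this comparison. They were Zbp1 (range 3.91), Usp18 (2.82), Ifit2 (2.64), Isg15 (2.18), Dhx58 (1.97), Ddx58 (1.36) and Mx2 (1.29), so much of the wide end is missing from it. Outside the members, 244 measured genes had a window with an ISRE match, of which 56 (23.0%) were lowest on WKY 1, against 13.8% of the 9357 genes without one. For the GAS letters the shares were 14.8% of 613 genes and 14.0% of 8988. These shares are a description with no test. Only the members were left out, so the 244 genes can hold some of the 44 further interferon-induced genes, of which 30 were lowest on WKY 1. How many they hold was not counted. Neighbouring genes did not always move alike: Ifit2 and Ifit3 both had wide ranges (2.64 and 3.91), while Cmpk2 and Rsad2 (1.04 and 3.11) did not match.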

How the data were processed

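Per the labels, RNA of cells pooled from 3 dishes was hybridised to each of 6 CodeLink arrays, 3 per strain. The authors extracted background-subtracted intensities with the CodeLink software and applied quantile normalization, per the labels' design text, which also says that spots below the negative controls plus 2 SD were excluded. No software version is stated there. The series table holds these deposited quantile normalized intensities (median 520 on each array), and the deposited per-sample tables hold intensity not normalized between arrays (medians 439 to 572). A code of -9999 marks 178 to 238 spots per array. The number of arrays limits the precision.

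Entries at or below 0 were treated as missing before taking log2. limma 3.58.1 (lmFit, eBayes, R 4.3.3) compared the strains, as SHR minus WKY in a two-sided test, at probes that had all 3 values of either strain plus 2 or more of its counterpart. Benjamini-Hochberg correction covered all 33249 such probes, with a call at 0.05. Only the limma fit with its correction was tested on simulated data, which had independent noise of equal spread in both strains. The members and lists were chosen with earlier results of these data known. By the naming rule, values on each array were given for the 12 members with the largest range and the 6 with the smallest unadjusted p, with examples of each role. From the pathway lists it took up to 4 genes each by unadjusted p, and Ifnb1, Ifng, Ifnar1, Ifnar2, Ifngr1, Irf3 and Irf8 where measured. An item of that rule is not reported here. Alternatives are in the closing section. Promoters are RefSeq windows of GRCr8, matched by gene ID. Figures were drawn with matplotlib 3.10.9.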

Additional observations from a re-analysis of the deposited data

How the results depend on the processing

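WKY 1 held the lowest value of 24 to 26 members in every setting that kept it, namely 4 normalizations or offsets, 2 filters and the mean over a gene's probes. The offset and the 2 filters could not change this count, since an offset keeps the order of arrays and the filters kept all 28 members. In the settings that could, it was 24 with intensities not normalized, 26 with median centring, 26 with cyclic loess and 24 with the mean over probes. With intensities not normalized between arrays the lowest value of 1 member was on SHR 1, of 0 on SHR 2 and of 2 on WKY 2, and with the mean over probes that of 3 was on SHR 3. Without WKY 1, an alternative added after seeing the data, the lowest value lay on SHR 3 for 19 members, on SHR 1 for 5, on SHR 2 for 2 and on WKY 2 for 2. The median difference was -0.11 with intensities not normalized, where that of all probes was 0.12, -0.38 with array weights, and between -0.28 and -0.20 in the other 8 settings on all arrays. Among these 8, the 2 filters, the trended prior and the replicate block could not move it, as they leave the difference of each member unchanged. The median difference was between -0.64 and 0.06 when single arrays were left out. Members with an unadjusted p under 0.05 numbered 0 in each setting, apart from 11 without WKY 1, so that leaving out arrays gave 0 to 11. A fit with a replicate block, from the array numbers, gave a median of -0.28, 0 members with an unadjusted p under 0.05 and 0 probes past the threshold. Deviations of same-numbered arrays correlated at 0.0011, 0.22 and -0.13 over probes, so the numbers were not taken to pair the samples. Over all probes 28 passed with a trended, robust prior, 17 with an offset of 50 and 18 once the dimmest 25% were dropped. The filter for 6 valid values and the array weights gave 5 each, and 0 of the members passed in any setting.

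Direction was kept by 11 members in each setting above that gave a value per gene. These settings include the trended prior and array weights, which were added per gene after seeing the data. The 2 filters, the trended prior and the replicate block could not turn the direction. It turned with intensities not normalized for Irf7 (0.11), Cxcl9 (0.15), Irf9 (0.042), Lgals3bp (0.11) and Irf1 (0.12), with median centring for Cxcl9 (0.0059) and Ifi27 (-0.034), with cyclic loess for Ifi27 (-0.0011), and with array weights for Ifi44 (-0.014), Gbp2 (-0.093) and Ifi27 (-0.052). Without single arrays the differences of members that turned ran from -0.32 to 0.75 for Bst2, -0.46 to 0.43 for Ifi44, -0.24 to 0.33 for Gbp2, -0.033 to 0.40 for Cmpk2, -0.25 to 0.22 for Ifi27 and -0.15 to 0.28 for Gbp5. They ran from -1.54 to 0.42 for Ifit3, -0.99 to 0.61 for Irf7, -1.25 to 0.31 for Rsad2, -1.30 to 0.11 for Usp18, -1.04 to 0.047 for Isg15 and -0.95 to 0.031 for Dhx58. For Cxcl9 they ran from -0.57 to 0.75, for Cxcl11 from -0.67 to 0.21, for Irf9 from -0.35 to 0.055, for Lgals3bp from -0.21 to 0.12 and for Irf1 from -0.15 to 0.030. In these 17 the ends came without WKY 1 and without WKY 3 or WKY 2, except for Cmpk2, highest without SHR 2, and Irf1, lowest without SHR 1. The causes were not tested.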
